A study of Mus musculus with 2 samples.

Results

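Macrophages of the dorsal root ganglion (DRG), the cluster of sensory neuron cell bodies beside the spinal cord, were examined for the subset that is rich in Fcrls, the gene of an Fc receptor-like protein of macrophages and microglia, and free of Ccr2, the receptor through which monocytes are drawn into tissue. A cell belonged to the subset when C1qa, C1qb and C1qc made up at least 0.5% of its unique molecular identifiers (UMIs, each counting 1 captured transcript), when it held at least 3 UMIs of Fcrls and 0 of Ccr2, and when Ifit1, Ifit2, Ifit3, Isg15 and Rsad2 stayed under 0.15% of its UMIs. By this rule 564 of 2668 cells were Fcrls-high Ccr2-negative macrophages, or 21.1% (exact 95% interval 19.6 to 22.7, counting error only). They made up 38.0% (35.5 to 40.5) of the 1484 macrophages that met the C1q limit. The cells were thus selected on their own levels of Fcrls, Ccr2, the C1q genes and the interferon genes, and the values of these 10 genes are given as a description with no test.

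The cells came from the DRGs of naive wild-type BALB/cAnNRj mice, 3 male and 3 female. The paper describes pooling of cervical, thoracic and lumbar DRGs for its flow cytometry. After enzymatic digestion and removal of myelin, the suspensions were stained for CD45 and marked with 1 of 6 hashtag antibodies (oligonucleotide tags that record the animal of origin), and live CD45+ cells were sorted and captured in a single lane of the 10x Genomics 3′ v3 assay. The 2668 cells carried the hashtag of male mouse 2, 3 or 5, with 481, 772 and 1415 cells. A larger matrix of the same lane held a further 1073 cells of female mice 1, 4 and 6, which the choice of subset had not used. Each hashtag was taken as 1 mouse. Sex was the single label that differed between mice, and no animal was treated. Fcrls-high Ccr2-negative macrophages held a median of 8865.5 UMIs per cell (1282 to 27441) and 2376.5 genes. The Ccr2-positive macrophages with at most 2 UMIs of Fcrls, the main cells of comparison, numbered 336 and held a median of 8248.5 UMIs. No cell's origin was traced, so residence in the tissue was not measured.

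Macrophages that settle in a tissue and maintain themselves there are commonly rich in scavenger and mannose receptors, which take up proteins, lipids and debris, whereas cells that still receive recruits from blood monocytes commonly carry Ccr2 and much MHC class II, the complex that shows antigen to CD4 T cells. CD163 is the receptor for complexes of haptoglobin and hemoglobin, and MRC1 (CD206) binds mannose-bearing glycoproteins. The DRG has blood vessels that are more permeable than those of the nerve or brain, and macrophages line them.

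The promoters of Fcrls, which the rule used, and of the receptor genes Cd163 and Mrc1, which are markers outside the rule, are shown as the starts of the genes that name the population and its main receptors. Each is the stretch of 250 bases before the RefSeq start on GRCm38.p6, read 5′ to 3′ on the strand of the gene. Capitals mark TGCTGA, the core of a half-site for Maf proteins, and GAGGAA (or TTCCTC on the other strand), the core letters that PU.1 binds. Both strands were searched, and the motifs can share the letters GA.
Fcrls, chr3:87263525-87263774, minus strand: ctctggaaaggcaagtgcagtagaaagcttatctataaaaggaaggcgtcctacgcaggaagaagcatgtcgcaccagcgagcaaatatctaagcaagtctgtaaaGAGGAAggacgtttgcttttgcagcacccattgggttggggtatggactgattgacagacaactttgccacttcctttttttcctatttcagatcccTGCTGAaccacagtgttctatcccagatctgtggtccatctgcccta
Cd163, chr6:124304401-124304650, plus strand: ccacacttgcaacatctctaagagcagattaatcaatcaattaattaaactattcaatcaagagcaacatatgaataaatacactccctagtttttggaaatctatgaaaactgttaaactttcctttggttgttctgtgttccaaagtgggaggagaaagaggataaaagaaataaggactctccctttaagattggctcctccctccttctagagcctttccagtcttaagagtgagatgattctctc
Mrc1, chr2:14229164-14229413, plus strand: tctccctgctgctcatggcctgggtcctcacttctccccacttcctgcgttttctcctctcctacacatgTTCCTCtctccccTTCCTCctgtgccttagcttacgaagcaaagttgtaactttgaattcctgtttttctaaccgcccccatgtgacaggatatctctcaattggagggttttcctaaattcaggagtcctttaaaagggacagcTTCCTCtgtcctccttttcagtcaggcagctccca
The Fcrls window held TGCTGA 47 bases and GAGGAA 144 bases before the RefSeq start. The GENCODE gene begins farther upstream than the RefSeq start, so most of the Fcrls window, both motifs included, lies inside the gene as GENCODE places it, as do the last bases of the Mrc1 window. In the Mrc1 promoter TTCCTC lay 180, 167 and 35 bases before the start, and in the Cd163 window neither motif occurred. Of 32851 promoters in the RefSeq table, 16.1% held TGCTGA and 23.3% held GAGGAA. Among the promoters of genes that were higher in the Fcrls-high cells than in Ccr2-positive macrophages (267 promoters of 195 of the 261 genes), 16.9% held TGCTGA and 24.7% held GAGGAA, against 8.62% and 28.4% for genes that were lower (348 promoters of 280 of the 363 genes) and 11.9% and 23.2% for all genes tested. A match of letters is a description and not a binding site.

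In each mouse the Fcrls-high Ccr2-negative cells were the most numerous of 5 classes of macrophages. They numbered 68 of 183 macrophages in mouse 2 (37.2%), 212 of 519 in mouse 3 (40.8%) and 284 of 782 in mouse 5 (36.3%). Among all CD45+ cells their share was 14.1%, 27.5% and 20.1%, a wider spread between mice. The other classes were macrophages with both Fcrls and Ccr2 (375 cells), Ccr2-positive Fcrls-low (336), low in both (157) and interferon-high (52). Fcrls ranged from 3 to 59 UMIs per cell with a median of 9, and the C1q genes from 0.626% to 3.78% with a median of 1.74%.

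The limit of 3 UMIs cut through a continuum. The 39 cells at exactly 3 UMIs of Fcrls had 194 CPM of Cd163 (the count per 1e+06 summed UMIs), 1201 of Mrc1, 101 of Igf1, 235 of Ccl24 and 2522 of Pf4. Just outside, the 44 cells without Ccr2 at 2 UMIs of Fcrls had 197, 1119, 83.9, 290 and 2122 CPM. All 564 cells together had 265, 1584, 188, 422 and 3835 CPM.

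The marker genes of these cells were read in every population (the plot of marker levels by population). The paper named Fcrls, Cd163, Mrc1, Maf, Ccl24 and Pf4 for a macrophage cluster of the same male cells. High levels of these genes in males were therefore known in advance and are a description. The markers are also counted in the gene lists below. Their genes lie on chromosome 3 (Fcrls, 87250758 to 87263738), 6 (Cd163, 124304656 to 124330527), 2 (Mrc1, 14229392 to 14332057), 8 (Maf, 115682942 to 115707794), 10 (Igf1, 87858265 to 87937042) and 5 (Ccl24, 135569937 to 135573049, and Pf4, 90772435 to 90773383) of GRCm38. The assay counts the 3′ end of a transcript once whatever its length, so levels do not scale with transcript length. Other differences in capture or counting between genes were not measured. In mouse 2, 3 and 5, Fcrls itself stood at 1216, 1106 and 1208 CPM, as the rule required. Csf1r, the receptor that keeps macrophages alive, was at 1252, 1239 and 1140 CPM, and Cx3cr1, the fractalkine receptor, at 627, 714 and 514, so the cells carried the general macrophage markers of the label.

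Cd163 was at 308, 238 and 270 CPM in the 3 mice, against 96.0, 90.7 and 101 in Ccr2-positive macrophages. Mrc1 was at 1511, 1692 and 1541 CPM against 480, 785 and 676. In both genes the mice of the populations did not overlap, as in 26.6% of all genes tested, and Cd163 had several-fold fewer UMIs than Mrc1. Maf, a transcription factor of mature macrophages, stood at 584, 737 and 534 CPM against 197, 323 and 243. Igf1, an insulin-like growth factor that acts on neurons and glia, was at 185, 204 and 179 CPM against 18.7, 34.5 and 27.5. For the eotaxin gene Ccl24 the values were 434, 606 and 318 CPM against 32.0, 76.6 and 46.0. Pf4, a platelet chemokine that macrophages also make, reached 3586, 4304 and 3628 CPM against 1304, 1428 and 1324. Mouse 3 was highest and mouse 5 lowest for Maf and Ccl24, and relative to the mean the spread between mice was wider for Ccl24 (mean 453, SD 145, n = 3) than for Igf1 (189, SD 13.3).

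**Figure D1:**
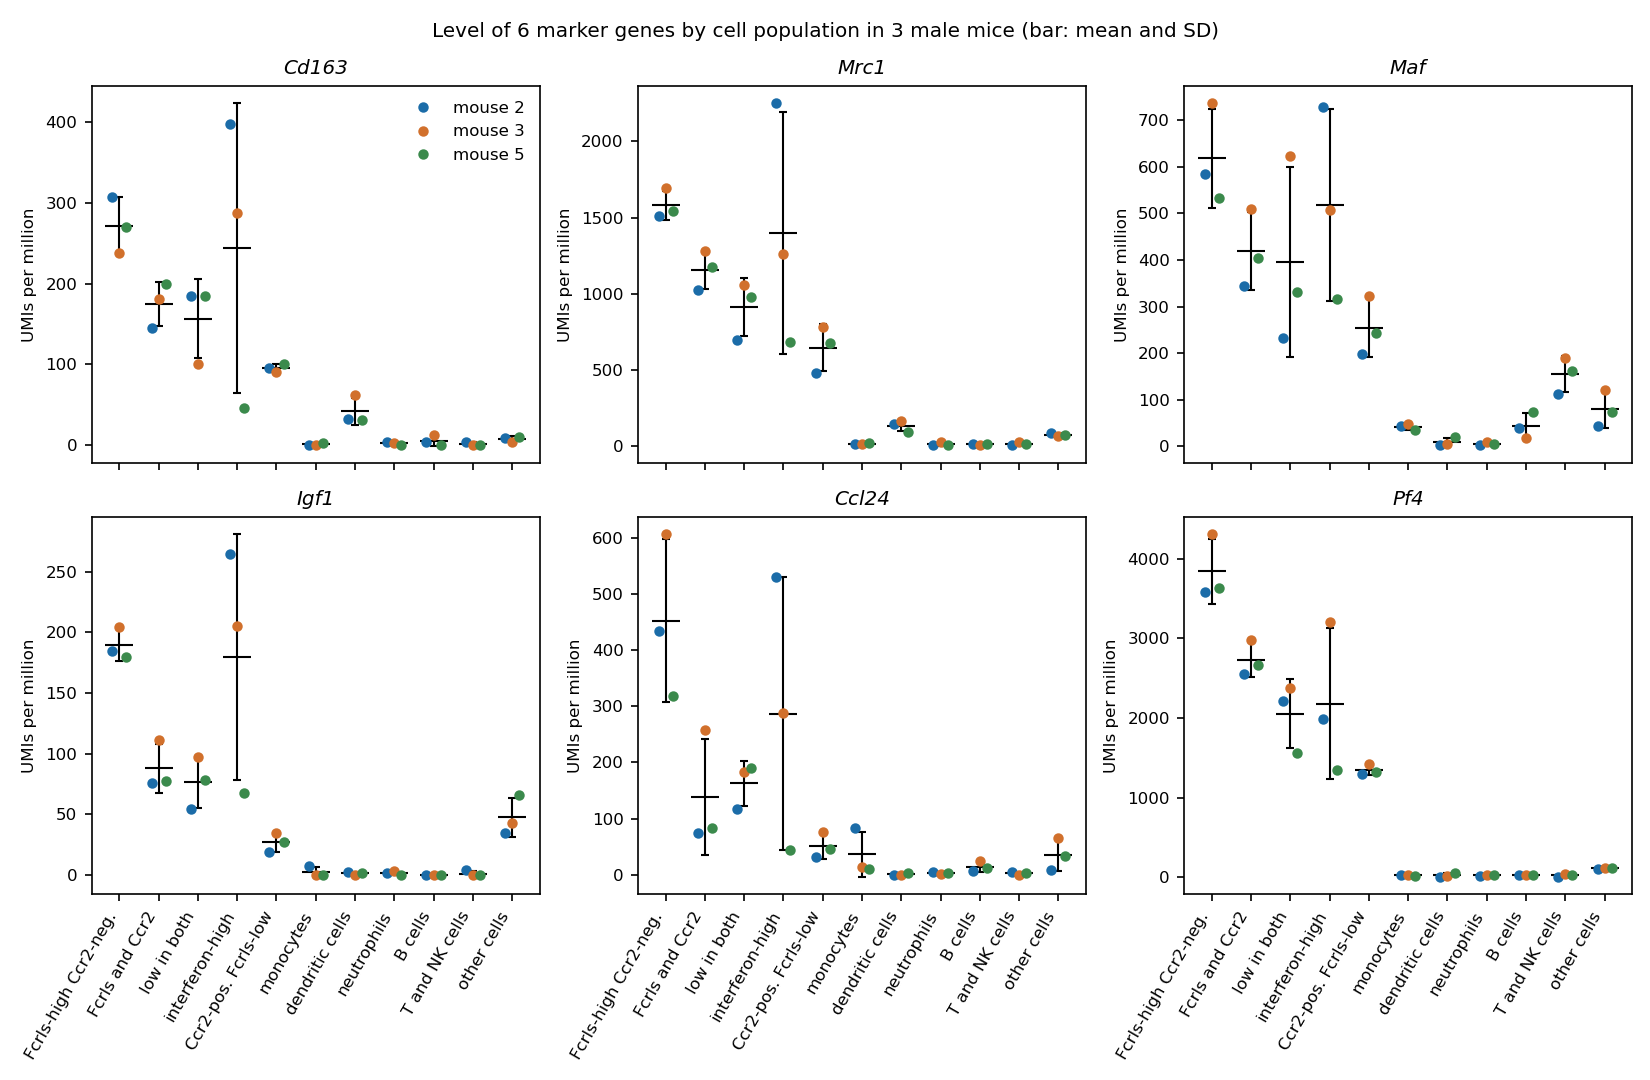
Levels of 6 marker genes in CPM (vertical axes, linear) in 11 cell populations of the 3 male mice. Points are mice and black bars the mean and SD. The Fcrls-high Ccr2-negative cells have the highest mean for each gene, the interferon-high class (2, 10 and 40 cells by mouse) overlaps them except for Pf4, and cells other than macrophages lie lower in every mouse.

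The Fcrls-high Ccr2-negative cells had the highest mean of all 11 populations for Fcrls, Cd163, Mrc1, Maf, Igf1, Ccl24 and Pf4. For all but Pf4 the neighbour in that order was the interferon-high class, whose mice overlapped them (Cd163 397, 288 and 46.0 CPM), and which held only 2, 10 and 40 cells. For Pf4 the neighbour was the class with both Fcrls and Ccr2, at 2556, 2984 and 2661 CPM, without overlap. Outside macrophages Cd163 reached 41.9 CPM in dendritic cells, and Maf reached 154 CPM in T and NK cells, a known site of its expression.

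In single cells, 77.3% of the Fcrls-high cells held a UMI of Cd163, 68.4% of Igf1 and 69.5% of Ccl24, where Ccr2-positive macrophages had 36.3%, 15.2% and 21.7%. With each cell thinned to 2000 UMIs (560 and 330 cells, 4 and 6 shallower cells left out), the shares for Cd163 were 40.2% and 12.7%, for Igf1 27.3% and 4.55%, and for Ccl24 41.3% and 5.45%. B cells, which should lack these genes, had 1.83% for Cd163, 6.10% for Ccl24 and 0 of 164 for Igf1 at a median of 3407 UMIs, the level that free RNA in the droplets can give. That level was far higher for the neutrophil gene S100a8, found in 89.4% of the Fcrls-high cells, 85.1% of Ccr2-positive macrophages and 85.4% of B cells.

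The most abundant transcripts of the subset were Apoe, the apolipoprotein of lipid transport (41567 CPM), Malat1, Cd74 (23476), the chemokine gene Cxcl2 (20787), Cst3 (15953), Lyz2 and the ferritin genes Ftl1 and Fth1. Apoe was at 44858, 43330 and 39901 CPM against 29961, 32245 and 33876 in Ccr2-positive macrophages (log2 fold change 0.29, SE 0.10), which did not overlap but missed the threshold at an adjusted p of 0.091 (edgeR). With the mouse as a block it was called (log2 0.28, SE 0.05, adjusted p 0.0011, edgeR). Cxcl2 was at 21657, 21073 and 20447 CPM against 21810, 17831 and 18152.

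UMIs were summed per mouse and population and compared with Ccr2-positive macrophages in edgeR (quasi-likelihood F-test, p-values adjusted by Benjamini-Hochberg), and a gene was called at an adjusted p under 0.05. Of 7385 genes tested, 261 were higher and 363 lower in the Fcrls-high Ccr2-negative cells (8.45% of genes called, 3.53% higher and 4.92% lower), and 610 of these 624 moved the same way in every mouse. Without mouse 2, 3 or 5 the calls numbered 339, 357 and 403. The median log2 fold change of all genes tested was 0.00.

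Ccl8, a chemokine for monocytes and lymphocytes (chromosome 11, 82115185 to 82116799), was at 559, 361 and 640 CPM against 40.0, 8.64 and 38.3, a log2 fold change of 4.07 (SE 0.30, adjusted p 1.1e-07, edgeR). Slc40a1, the gene of the iron exporter ferroportin, was at 25.9, 42.6 and 23.9 CPM against 0, 0 and 1.92. With only 3 UMIs in the Ccr2-positive cells, the ratio of the pooled levels was 28.6 with a counting interval of 9.62 to 140. Vcam1, an adhesion molecule of endothelium and of some macrophages, was at 17.8, 46.3 and 33.7 CPM against 0, 2.16 and 1.92 (log2 4.15, SE 0.49). Each of these genes was low in most cells: 37.9% of the Fcrls-high cells held a UMI of Ccl8, 16.3% of Slc40a1 and 9.93% of Vcam1, against 9.52%, 0.595% and 1.49% of Ccr2-positive cells. B cells had 1.22%, 1.22% and 0 of 164, and 40.2% of neutrophils held a UMI of Slc40a1.

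Gpx3, a secreted glutathione peroxidase, was at 59.9, 45.1 and 54.5 CPM against 2.67, 0 and 5.11 (log2 3.92, SE 0.39). Egfl7, a secreted protein best known from endothelial cells, was at 128, 206 and 125 CPM against 5.33, 21.6 and 10.9 (log2 3.38, SE 0.30). It was found in 59.9% of the Fcrls-high cells and 8.04% of Ccr2-positive cells, so it was spread over more cells than Ccl8. Spats2l, Cyr61 (a matricellular protein) and Ctla2a completed the list of large increases at under 50 CPM in each mouse, with log2 fold changes of 4.07 (SE 0.57), 2.98 (SE 0.54) and 2.75 (SE 0.47).

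Several receptors that bind and internalise ligands were higher. Of 18 genes of scavenger and endocytic receptors that could be tested, 9 were higher and 0 lower, with a median log2 fold change of 1.12 against 0.00 for all genes, and their summed share of UMIs was 0.455%, 0.478% and 0.477% against 0.178%, 0.237% and 0.228%. Cd163 and Mrc1 are among the 9, and the paper had named them from the same male cells. Clec4n, which encodes dectin-2 for fungal mannans, was at 128, 207 and 194 CPM against 32.0, 16.2 and 24.3 (log2 2.87, SE 0.22). Stab1, a receptor for modified lipoproteins and apoptotic cells, was at 539, 431 and 540 CPM against 155, 136 and 194 (log2 1.49, SE 0.15). Clec10a, a galactose-binding lectin, was at 81.0, 78.5 and 67.8 CPM against 8.0, 38.9 and 16.6 (log2 1.58, SE 0.28), and the folate receptor gene Folr2 at 162, 119 and 182 against 42.7, 49.7 and 103 (log2 0.98, SE 0.23). All 4 were higher in every mouse, and the call of Folr2 was lost without mouse 2 (log2 0.83, adjusted p 0.14, edgeR). Lyve1, a hyaluronan receptor, stood at 21.05, 16.1 and 29.0 CPM against 0, 2.16 and 17.3 and did not pass (adjusted p 0.17, edgeR), and the scavenger receptor gene Cd36 was at 188, 235 and 146 against 192, 201 and 107 (adjusted p 0.89, edgeR).

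Of 22 genes of the endocytic and lysosomal machinery, 9 were higher and 3 lower, at a median of 0.26. Clathrin heavy chain Cltc (471, 487 and 535 CPM against 261, 249.4 and 311, log2 0.73, SE 0.12) and the sorting nexin Snx2 (288, 274 and 285 against 117, 150 and 131, log2 0.94, SE 0.13) were higher. The lower genes included Psap (log2 -0.75, SE 0.11), which codes for the precursor of the saposins, and the lysosomal protease Ctss (-0.59, SE 0.12).

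Chemokine genes split. Of 16 ligand genes tested, 5 were higher (Ccl7, Ccl8, Ccl12, Ccl24 and Pf4) and 3 lower (Ccl5, Ccl6 and Cxcl14), at a median of 0.32. The paper had listed the 5 higher ones for its CD163+ macrophages from the same male cells. With the mouse as a block in edgeR, 8 were higher and 5 lower. The monocyte chemokine Ccl7 was at 1422, 1257 and 1704 CPM against 779, 329 and 410 (log2 1.44, SE 0.22), named here after its values were seen. Among the lower ones, Cxcl14 was at 16.2, 14.2 and 34.4 CPM against 69.3, 56.1 and 93.9 (log2 -1.76, SE 0.26). Ccl5, a T cell and macrophage chemokine, was at 0, 8.03 and 15.3 against 0, 18.4 and 81.2 and so rests on mouse 3 and 5 (log2 -2.17, SE 0.58, adjusted p 0.023, edgeR). DESeq2 did not call it (log2 -2.19, SE 2.11, adjusted p 0.90). Of 5 receptor genes tested, Ccr1 was higher, at 151, 131 and 263 CPM against 53.3, 32.4 and 117 (log2 1.20, SE 0.30), and 4 were not called, among them Ccrl2, Cx3cr1 and Cxcr4. With the mouse as a block, edgeR called 3, with Ccrl2 (log2 0.35, adjusted p 0.013) and Cx3cr1 (log2 0.28, adjusted p 0.048) added. Without mouse 2 the calls of Ccr1 (adjusted p 0.13) and Ccl6 (adjusted p 0.062) were lost in edgeR, and DESeq2 did not call Ccr1 (adjusted p 0.29).

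Growth and trophic factors included 7 higher genes and 1 lower gene of 15 tested, although the median of the list was -0.12. A block for mouse in edgeR gave 7 higher and 4 lower, with Il1b (log2 -0.33, adjusted p 0.0018), Il1a (log2 -0.79, adjusted p 0.016) and Tgfb1 (log2 -0.39, adjusted p 0.021) added. Grn, Vegfb and Osm were among the higher ones, and the lower one without that block was the inflammatory cytokine gene Tnf, at 117, 138 and 110 CPM against 227, 230 and 194 (log2 -0.95, SE 0.15), named after its values were seen. The largest difference was that of Igf1, one of the markers chosen beforehand. Gas6, the ligand of the TAM receptors that clear apoptotic cells, was at 510, 472 and 519 CPM against 181, 163 and 186 (log2 1.38, SE 0.12), with a spread of mice far below the difference. Il10, an anti-inflammatory cytokine, was at 144, 103 and 144 CPM against 82.7, 54.0 and 58.2 (log2 0.95, SE 0.18). Tslp, a cytokine of barrier tissues, was at 34.0, 26.6 and 22.8 CPM against 0, 2.16 and 12.1 (log2 1.76, SE 0.43), and 14.2% of the cells held a UMI of it against 2.08%. The call of Tslp was lost without mouse 2 (log2 1.45) or 3 (1.32), and those of Grn and Vegfb without any 1 mouse and of Osm without mouse 3 or 5. DESeq2 did not call Tslp (adjusted p 0.19), Osm (0.12) or Vegfb (0.24).

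Some iron and heme genes and some secreted plasma proteins were higher. In the iron list, 6 of 13 tested genes were higher and 0 lower, at a median of 0.43. A fit in edgeR with the mouse as a block gave 7 higher and 1 lower, the ferritin heavy chain gene Fth1 (log2 -0.26, adjusted p 0.0018). The 6 included Ncoa4, the receptor that delivers ferritin to lysosomes (112, 83.4 and 71.9 CPM against 18.7, 24.8 and 21.1, log2 1.83, SE 0.22), Blvrb, which reduces biliverdin (log2 1.28, SE 0.14), Hfe (log2 1.003, SE 0.14) and the abundant ferritin light chain Ftl1 (log2 0.39, SE 0.10), whose call was lost without mouse 2 (0.34) or 3 (0.39). Among plasma and matrix proteins 5 of 14 were higher (F13a1, Selenop, Gpx3, Cp and Cfp) and 1 lower, where the call of Cfp was lost without mouse 2 (log2 0.96) or 5 (0.82). The coagulation factor F13a1 was at 410, 391.7 and 427 CPM against 144, 131 and 201 (log2 1.21, SE 0.15) and ceruloplasmin, Cp, at 125, 133 and 151 against 50.7, 41.0 and 83.7 (log2 1.03, SE 0.19). Osteopontin, Spp1, was the lower gene, at 11.3, 34.6 and 38.9 CPM against 109, 121 and 137 (log2 -2.08, SE 0.22).

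Among transcription factors of macrophage identity, 4 of 22 were higher and 3 lower, at a median of -0.03. Maf (one of the markers chosen beforehand), Klf2, Spic and Tcf4 were higher and Id3, Hes1 and Batf3 lower. Spic, which red pulp macrophages need to recycle iron, was at 14.6, 29.0 and 15.0 CPM against 8.0, 3.24 and 5.11 (log2 1.88, SE 0.44), and its call was lost without mouse 3 (log2 1.23, adjusted p 0.2, edgeR). Those of Klf2 and Tcf4 were lost without mouse 2 or 3, and that of Batf3 without mouse 3 or 5. DESeq2 called neither Klf2 (adjusted p 0.25) nor Batf3 (adjusted p 0.19). The inhibitor of differentiation Id3 was at 134, 89.6 and 74.3 CPM against 235, 241 and 176 (log2 -1.32, SE 0.20), and the Notch target Hes1 at 4.86, 5.56 and 12.95 against 21.3, 24.8 and 34.5 (log2 -1.76, SE 0.32). Cebpb was the most abundant factor, at 3050, 3726 and 3519 CPM against 3266, 2861 and 2786, and was not called.

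Most MHC class II genes were lower. Of 12 tested, 10 were lower and 1 higher, at a median of -1.02, and the summed share of UMIs was 5.05%, 5.29% and 3.23% against 7.88%, 8.70% and 7.16%. The invariant chain gene Cd74 was at 28907, 29776 and 18857 CPM against 43687, 47358 and 40166 (log2 -0.88, SE 0.15, adjusted p 0.00085, edgeR). H2-DMb1, which helps load peptides, was at 617, 815 and 436 CPM against 1192, 1413 and 1075 (log2 -1.11, SE 0.18). Ciita, the master activator of the class II genes, was at 22.7, 47.6 and 22.5 CPM against 61.3, 65.9 and 67.1 (log2 -1.19, SE 0.25). The costimulatory receptor Cd40 (log2 -1.81, SE 0.41) and H2-Ob (log2 -1.48, SE 0.40) were lower at 30 CPM or less. The call of Ciita was lost without mouse 2 (log2 -1.11) or 5 (-0.81), that of Cd40 without mouse 3 (-1.52) or 5 (-1.40) and that of H2-Ob without any 1 mouse (-1.74 to -1.29). DESeq2 called neither Cd40 (adjusted p 0.058) nor H2-Ob (adjusted p 0.11). Mouse 5 was lowest for Cd74 and H2-DMb1 in the Fcrls-high cells and in the Ccr2-positive cells. The gene that went the other way was Cd86, a costimulatory ligand, at 201, 219 and 179 CPM against 109, 127 and 125 (log2 0.58, SE 0.14), named after its values were seen, and its call was lost without mouse 2 (0.55) or 3 (0.52).

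Genes of monocytes and recent recruits had the lowest median of the 17 lists. Of 13 tested, 12 were lower and 0 higher, at a median of -2.62. The classes were split on Ccr2, a receptor of monocytes, and the list was chosen with earlier results of these data known. The list includes Tnip3, Sirpb1b and Sirpb1c, and its direction is not independent of the choice of cells. S100a4, a calcium-binding protein of monocytes, was at 4.86, 1.85 and 7.16 CPM against 56.0, 107 and 69.0 (log2 -4.07, SE 0.32). Tnip3, an inhibitor of NF-kB signalling, was at 0, 6.18 and 11.9 CPM against 203, 188 and 229 (log2 -4.76, SE 0.27). Lsp1, a leukocyte actin-binding protein, was at 24.3, 8.65 and 26.6 CPM against 165, 188 and 155 (log2 -3.21, SE 0.24), and the adhesion molecule gene Alcam at 11.3, 3.09 and 6.82 against 45.3, 34.5 and 37.7 (log2 -2.73, SE 0.31). Sirpb1c, Sirpb1b, Gm5150, Klra2, Lyz1 and Pira2 were also among the 10 largest decreases, with log2 fold changes of -4.87, -4.59, -3.07, -2.84, -2.62 and -2.30. Most of these belong to families of closely similar genes, among which the counting could split reads, so their values are uncertain. Sharing of reads was not measured here.

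The remaining lists showed few or mixed calls, and those of their genes that lie outside the rule for named genes were named after their values were seen. Microglia signature genes had 3 higher and 2 lower of 13, at a median of 0.07. P2ry12, Siglech and Gpr34 were higher, and Tgfbr1 was among the lower ones. P2ry12, a purine receptor of microglia, was at 50.2, 61.8 and 48.4 CPM against 45.3, 18.4 and 28.1 (log2 0.83, SE 0.24), and Siglech at 254, 231 and 135 against 109, 90.7 and 92.7 (log2 0.96, SE 0.21). Sall1, the transcription factor that defines microglia, was found in 0 of 564 cells, which allows a share of up to 0.532% of cells with a UMI and sets no limit on cells that express it below detection. Apoptotic cell clearance had 2 higher (Gas6 and Stab1) and 2 lower (Axl and Havcr2) of 11. Fc and complement receptors had 2 higher (Fcgr2b and Fcgrt) and 2 lower (Fcgr4 and Itgb2) of 11. Lipid handling had 2 higher (Abca1 and Apoc1) and 2 lower (Lpl and Ch25h) of 14. Of growth factor receptors 0 were higher and 3 lower of 15, among them Csf2ra, Tgfbr1 and Acvrl1. The calls of P2ry12 (log2 0.45 without mouse 3, 1.002 without mouse 5) and Siglech (0.88 without mouse 2, 0.77 without mouse 3) were lost with 2 mice a population, the sign kept. Those of Gpr34, Tgfbr1, Axl, Fcgr2b, Fcgrt, Fcgr4, Itgb2, Apoc1, Lpl, Ch25h, Csf2ra and Acvrl1 were each lost in edgeR without at least 1 mouse, also with the sign kept. Some of these folds stayed large, such as that of Lpl at -1.62 without mouse 2 and -1.68 without mouse 3. DESeq2 did not call P2ry12 (adjusted p 0.17), Gpr34, Tgfbr1, Axl, Itgb2 or Acvrl1 (adjusted p 0.054 to 0.13). With the mouse as a block in edgeR, 5 microglia genes were higher and 3 lower, 4 Fc and complement receptors were higher and 2 lower, and 2 growth factor receptors were higher and 3 lower. Of S phase and mitosis genes 0 of 16 were called by edgeR or DESeq2, at a median of 0.51, with 1 gene at an unadjusted p under 0.05 by each tool. With the mouse as a block, edgeR called 1, Stmn1 (log2 0.95, SE 0.24, adjusted p 0.015).

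**Figure D2:**
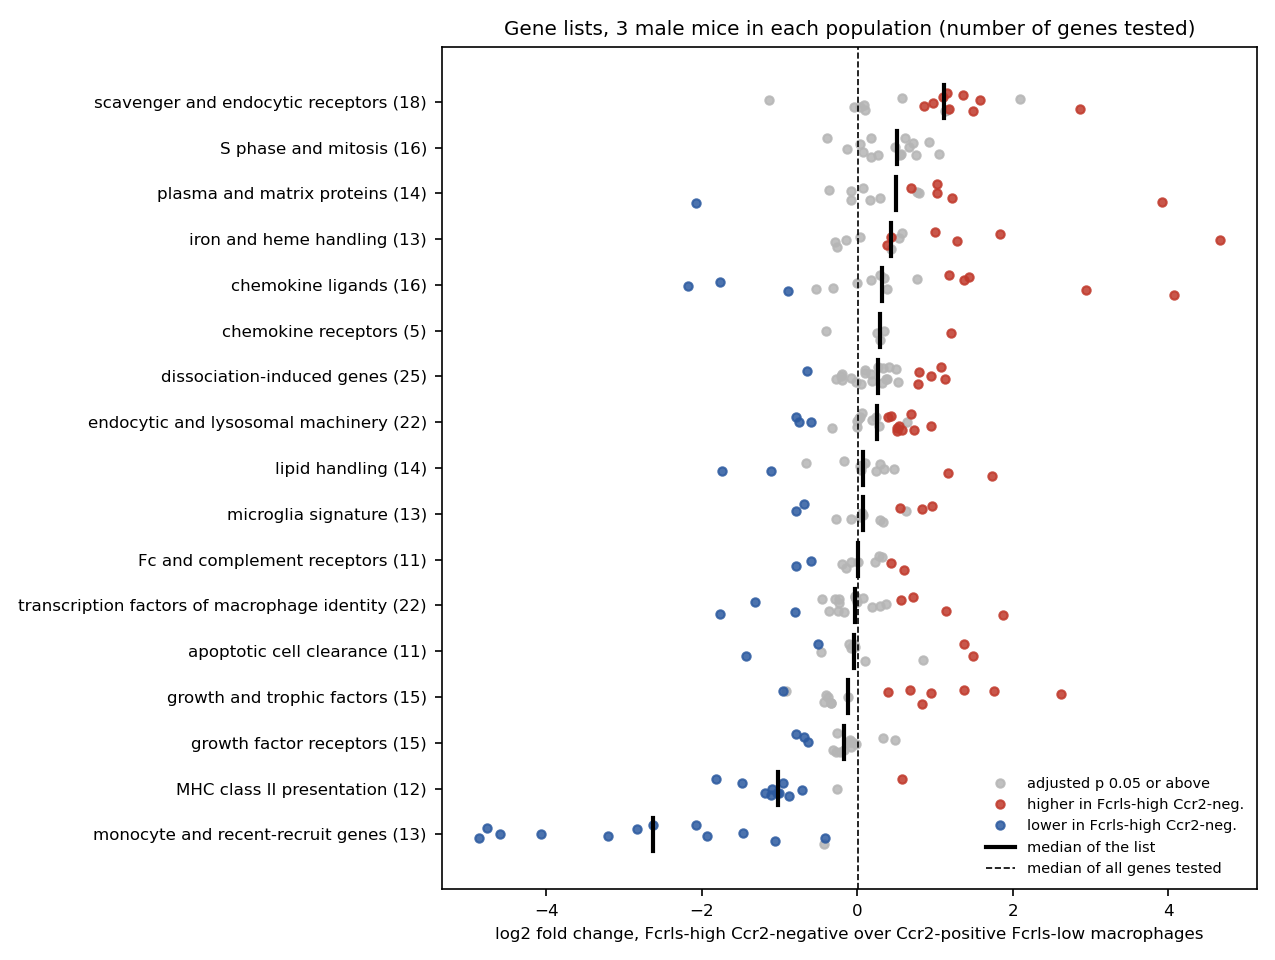
Log2 fold change (horizontal axis) of each tested gene of 17 lists, Fcrls-high Ccr2-negative over Ccr2-positive Fcrls-low macrophages, with 3 male mice in each. Points are genes, coloured by call at an adjusted p under 0.05, thick bars the median of a list and the dashed line the median of all genes. Scavenger receptors lie to the right (median 1.12), and MHC class II (-1.02) and monocyte genes (-2.62) to the left.

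Genes that tissue dissociation induces were partly raised. Of 25 tested, 5 were higher (Fos, Fosb, Jun, Atf3 and Rhob) and 1 lower (Socs3), at a median of 0.27 (9 and 2 with the mouse as a block in edgeR), and their summed share of UMIs was 3.04%, 4.40% and 2.96% against 2.74%, 2.85% and 2.35%. Fos was at 2952, 5609 and 3012 CPM against 1794, 2034 and 1668 (log2 0.95, SE 0.19), Jun had a log2 fold change of 1.08 (SE 0.25), Rhob of 1.13 (SE 0.18) and Atf3 of 0.80 (SE 0.14). Mouse 3 was highest for Fos, and the calls of Jun (log2 1.11, adjusted p 0.096, edgeR) and Socs3 were lost without mouse 2, the latter also without mouse 5. DESeq2 called neither Fos (adjusted p 0.095) nor Jun (adjusted p 0.21) in males. The part of digestion in these or other differences was not tested.

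Markers of other cells were read for the whole of each list. The 11 neutrophil genes summed to 975, 1064 and 3873 CPM in the Fcrls-high cells and 880, 991 and 951 in Ccr2-positive cells, against 437263 in neutrophils. The excess in mouse 5 came from few cells: 19 of the 564 cells (3.37%) also passed the limit of another cell type, 3 of them that of neutrophils, and without the 19 cells the sum was 975, 1071 and 889 CPM. Retnlg, a neutrophil gene, was called higher (51.8, 40.8 and 300 CPM against 37.3, 36.7 and 39.0, adjusted p 0.043, edgeR), and the call was lost without these cells. Mmp9 was called as well, at 25.9, 11.1 and 13.3 CPM against 2.67, 4.32 and 2.56, and lost its call without mouse 2 (log2 1.80). That of Retnlg was also lost without mouse 2 (log2 2.08) or 5 (0.17), and with DESeq2 (adjusted p 0.48).

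B cell genes summed to 380, 349 and 339 CPM against 291, 356 and 309, most of it Ighm, with Ms4a1 at 0. T and NK cell genes were at 3.24, 13.6 and 23.9 CPM against 13.3, 14.0 and 17.3, and dendritic cell genes at 66.4, 68.0 and 48.1 against 32.0, 68.0 and 70.9 with Xcr1 and Clec9a at 0. The endothelial list reached 134, 217 and 133 CPM against 8.0, 30.2 and 17.3, of which Egfl7 alone was 151 on average, and Esam was at 0. The fibroblast list was at 66.4, 169 and 158 CPM against 32.0, 103 and 69.0, most of it Dcn (called in edgeR with the mouse as a block only, log2 0.89, SE 0.16, adjusted p 0.00084), and the glial list at 628, 578 and 615 against 411, 365 and 325, most of it Pmp22 (log2 0.70, SE 0.15), which macrophages also express. Neuron genes were at 176, 200 and 156 CPM against 176, 209 and 183, and mural cell, red cell and platelet, and mast cell and basophil genes were under 10 CPM in each mouse. The part of captured material in the glial and fibroblast genes was not tested.

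The same comparison in the 3 female mice used animals on which the subset had not been chosen. There the Fcrls-high cells numbered 74, 66 and 104 in mouse 1, 4 and 6, or 35.1%, 37.3% and 46.8% of macrophages, and the Ccr2-positive cells 51, 41 and 52. Of 4508 genes tested, 146 were higher and 176 lower (7.14% called, 3.24% higher and 3.9% lower), and 149, 199 and 194 genes were called without mouse 1, 4 or 6. All 6 markers that the rule did not use were higher in these mice by edgeR, without overlap between the mice of the populations (23.7% of all genes tested did not overlap). Cd163 was at 279, 266 and 216 CPM against 95.3, 160 and 127 (log2 0.95, SE 0.18, adjusted p 0.0026), and the call was lost without mouse 1 (log2 0.69, adjusted p 0.097). Mrc1 had a log2 fold change of 0.99 (SE 0.12, adjusted p 2.4e-05), Maf of 1.23 (SE 0.15, adjusted p 3e-05), Igf1 of 2.40 (SE 0.24, adjusted p 3.1e-06), Ccl24 of 2.95 (SE 0.19, adjusted p 1.3e-08) and Pf4 of 1.15 (SE 0.10, adjusted p 5.5e-07).

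Of the 212 genes called higher in male mice that could be tested in female mice, 100 were called in both sexes, which is 47.2% of the male calls and 68.5% of the 146 female calls, where 3.24% of the genes tested in both were called higher in females. For lower genes 155 were called in both, 50.7% of 306 male calls and 88.6% of 175 female calls, where 3.88% were called lower. The sign in females was that of males for 209 of the 212 and 304 of the 306 genes.

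Ccl8 was at 127, 32.8 and 58.7 CPM in female Fcrls-high cells against 2.51, 7.10 and 0 (143 and 3 UMIs, a ratio of pooled levels of 25.8, counting interval 8.66 to 127). Gpx3 was at 48.3, 59.7 and 57.5 CPM against 2.51, 3.55 and 0, a ratio of 29.0 (7.83 to 242) on 107 and 2 UMIs, and Vcam1 had a ratio of 25.5 (6.86 to 213) on 94 and 2 UMIs. Egfl7 (log2 3.67, SE 0.25), Clec4n (3.15, SE 0.28), Gas6 (1.36, SE 0.16) and Stab1 (1.27, SE 0.16) repeated their increase. Tnip3 (log2 -4.81, SE 0.51), Lsp1 (-3.62, SE 0.33), Spp1 (-2.59, SE 0.39), Id3 (-1.94, SE 0.23) and Cd74 (-0.68, SE 0.07) repeated their decrease. Of the lists, scavenger receptors had 9 higher and 0 lower of 14, MHC class II 1 higher and 8 lower of 9, and monocyte genes 0 higher and 8 lower of 10. The classes were again split on Ccr2. Dissociation-induced genes moved as well in the female mice, with 7 higher and 0 lower (12 and 0 with the mouse as a block in edgeR). P2ry12 (adjusted p 0.11) and Hfe (adjusted p 0.053) did not pass in the female mice by edgeR, although their signs were those of the males, and Hfe passed with the mouse as a block (adjusted p 0.020). Of the 20 genes with the largest changes in males, 12 could be tested in females and all 12 were called the same way by edgeR. The other 8, Ctla2a, Cyr61, Klra2, Lyz1, Pira2, S100a4, Slc40a1 and Spats2l, had too few UMIs there for the test.

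**Figure D3:**
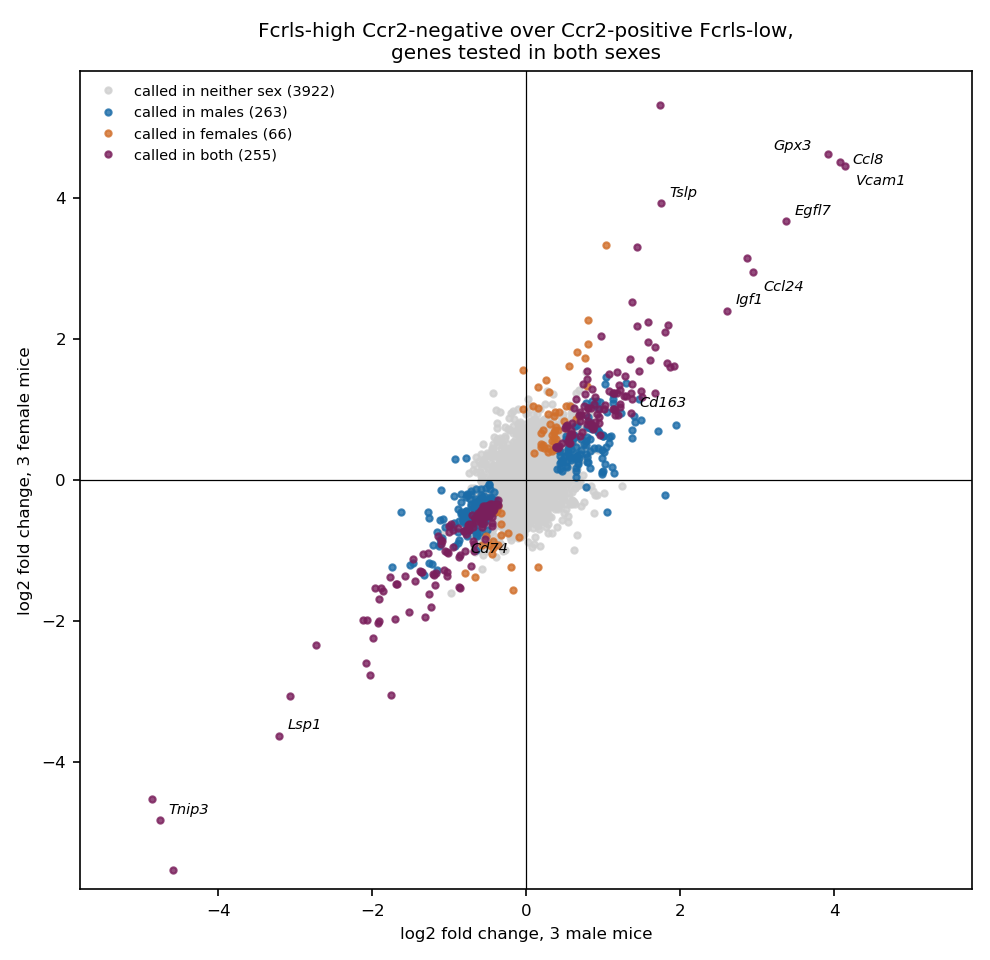
Log2 fold change of Fcrls-high Ccr2-negative over Ccr2-positive Fcrls-low macrophages in 3 male mice (horizontal) and 3 female mice (vertical) for the 4506 genes tested in both. Points are genes coloured by call. The 255 genes called in both sexes lie in the lower left and upper right, among them Tnip3 (-4.76 and -4.81) and Ccl8 (4.07 and 4.51).

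A fit of all 12 sums with a term for the difference of the contrast between sexes called 0 of 6085 genes (0.0%) by edgeR, with 197 at an unadjusted p under 0.05. The smallest p belonged to Ccl7, whose increase was smaller by 1.84 on the log2 scale (SE 0.35) in males than in females, at an adjusted p of 0.21. For this gene the Fcrls-high cells were at 1257 to 1704 CPM in males and 1310 to 2050 CPM in females. The Ccr2-positive cells were at 329 to 779 and 114 to 189. For Apoc1 and Ctla2a, called higher in males, the increase was larger in males than in females by 3.08 (SE 0.76) and 3.29 (SE 0.996) on the log2 scale, at an adjusted p of 0.9996 each in edgeR.

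Set against monocytes (98 cells of the male mice), 1317 genes were higher and 1191 lower of 6072 tested in edgeR (41.3% called, 21.7% higher and 19.6% lower). Monocytes were cells with C1q under 0.5% of UMIs, at least 3 UMIs of Ly6c2 and Plac8 together and a UMI of Csf1r. They lay outside the limits of the other cell types. Several of the named macrophage genes had 0 UMIs in monocytes. Ccl8 (2809 UMIs against 0) was at least 222-fold higher, Hpgds, a prostaglandin D synthase, at least 61.6-fold, Cp at least 58.1-fold and the peptide transporter Slc15a2 at least 49.3-fold, with 3 UMIs over the pooled monocytes taken as the floor, as for the other cell types below. Gas6, with 2602 UMIs against 1, had a ratio of 616 with a counting interval of 111 to 24353. In the other direction F10, coagulation factor X, was found in monocytes at 155, 123 and 156 CPM and held 0 UMIs in the Fcrls-high cells, at least 259-fold lower. Gpr141 was at 0, 0.618 and 0.341 CPM against 253, 185 and 210, and the aspartic protease Napsa at 1.62, 0.618 and 2.05 against 584, 551 and 590 (log2 -8.19, SE 0.25). Of MHC class II genes 9 of 11 were higher than in monocytes and 1 lower.

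Against dendritic cells (100 cells), 1231 genes were higher and 1159 lower of 5911 (40.4% called, 20.8% higher and 19.6% lower), again in edgeR. Folr2 and Slc15a2 had 0 UMIs in dendritic cells and were at least 75.2-fold and 56.9-fold higher. Ccl24 had a ratio of 298 (interval 82.4 to 2461) on 2181 and 2 UMIs, Ccl8 was at 559, 361 and 640 CPM against 2.98, 0 and 4.08 (log2 7.47, SE 0.40), and the carbonyl reductase Cbr2 at 690, 500 and 649 against 2.98, 0 and 5.44 (log2 7.40, SE 0.33). Napsa (log2 -8.60, SE 0.25), the gut-homing integrin Itgb7 (-8.52, SE 0.29) and the eosinophil-type ribonuclease Ear2 (1 UMI against 157) were lower. MHC class II genes were on the other side here, with 0 higher and 10 lower of 12.

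In edgeR, 67.9% of 7713 genes were called against neutrophils (569 cells, 2801 or 36.3% higher and 2438 or 31.6% lower), 60.9% of 5636 against B cells (164 cells, 1843 or 32.7% and 1590 or 28.2%) and 53.1% of 5440 against T and NK cells (131 cells, 1520 or 27.9% and 1366 or 25.1%). Against neutrophils, the leukotriene C4 synthase gene Ltc4s (512, 457 and 386 CPM against 0.828, 0 and 1.69), Pmepa1, Cd36, Pla2g2d and Cttnbp2nl had the largest increases, and Ltf, lactoferrin of neutrophil granules, was at 4.86, 13.6 and 14.7 CPM against 8616, 7928 and 6828, with Orm1 and Olfm4 behind it. In B cells P2ry6, a receptor for UDP, had 0 UMIs against 1552 (at least 79.1-fold higher), as had Igf1, Clec4n, Fosl2 and Adap2, while the immunoglobulin light chain Iglc2 had 632 UMIs in B cells and 0 in the macrophages. Igll1 and Iglc1 were lower too. In T and NK cells Slc15a3, a transporter of the endolysosome, had 0 UMIs against 1230 (at least 62.4-fold higher), as had Cd36, Adap2, Cp and Sash1, and the lymphocyte genes Gimap3, Skap1 and Ctsw had 0 UMIs in the macrophages.

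Among the Fcrls-high cells themselves, MHC class II varied widely (the histograms by mouse). The 14 class II genes took 0.0498% to 12% of a cell's UMIs, with medians of 5.42%, 5.87% and 3.22% in mouse 2, 3 and 5, against a median of 8.30% over the Ccr2-positive cells. In 95 cells (16.8%) the share was under 1%, or 11.8%, 7.08% and 25.4% of the cells of mouse 2, 3 and 5. In 48 cells (8.51%) it reached the Ccr2-positive median, or 13.2%, 9.43% and 6.69% of the cells of these mice. Mouse 5 thus had the largest share of cells under 1% and the smallest at or above that pooled median. The Ccr2-positive medians by mouse were 8.57%, 8.91% and 7.63%, so mouse 5 was lowest in both classes.

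Cells with little class II had other levels of several genes outside class II. Among those under 1%, Folr2 was at 269, 328 and 289 CPM in mouse 2, 3 and 5, against 145, 97.3 and 133 in the other cells. Ccl8 was at 1006, 1559 and 1198 CPM against 487, 240 and 386, Igf1 at 246, 428 and 226 against 175, 182 and 158, and Clec4n at 234, 308 and 310 against 111, 197 and 140. Cd163 was at 327, 301 and 277 CPM against 304, 231 and 267. No gene looked at was lower in all 3 mice. Lyz2 was at 14606, 11477 and 11306 CPM against 14369, 12764 and 15029, and Cx3cr1 at 643, 636 and 462 against 624, 721 and 538, both lower in mouse 3 and 5 and slightly higher in mouse 2. Apoe was lower only in mouse 5 (33050 against 43027, with 48646 against 44250 in mouse 2 and 44983 against 43162 in mouse 3). Ccl7 was lower in mouse 2 (737 against 1532) and higher in mouse 3 (1827 against 1199) and 5 (2701 against 1249). These cells held a median of 10949 UMIs against 8495, the number of cells was 8, 15 and 72, and the split was made after the values were seen, so the values are a description. Within each mouse, the Spearman correlation over cells between class II and scavenger receptor share was -0.55, -0.43 and -0.41 (68, 212 and 284 cells of 1 library), and that between Igf1 and Ccl24 0.34, 0.34 and 0.30. The correlation of class II share with a cell's total UMIs was -0.21, -0.13 and -0.39.

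**Figure D4:**
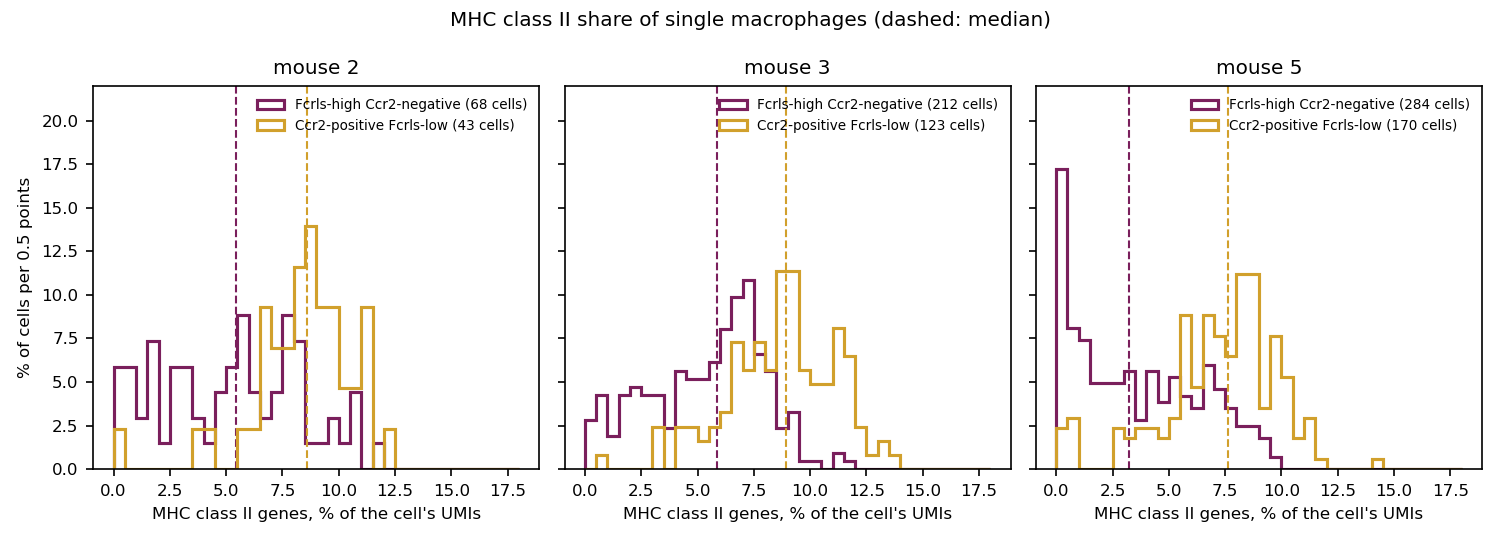
Share of a cell's UMIs in 14 MHC class II genes (horizontal axis, percent) in single macrophages of male mice 2, 3 and 5, as percent of the cells of the population (vertical axis) in bins of 0.5 points. Dashed lines are medians. The Fcrls-high Ccr2-negative cells spread from near 0 to 12%, with a peak near 0 in mouse 5, and their medians (5.42, 5.87 and 3.22%) lie below those of the Ccr2-positive cells.

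Transcripts of several chemokines sat in few cells. The 56 cells with the most UMIs of a gene held 83.7% of all UMIs of Ccl8, 63.8% of Ccl7, 61.7% of Ccl2, 61.9% of Folr2 and 49.5% of Ccl24, but 26.8% of Fcrls, 26.1% of Maf and 23.4% of Mrc1. Lyve1, Folr2 and Timd4 are known to mark long-lived macrophages of many tissues. Here 222 cells held a UMI of Folr2 (39.4%), 46 of Lyve1 (8.16%) and 11 of Timd4 (1.95%), where Timd4 was found in 4.46% of Ccr2-positive cells and 0 of 164 B cells. Of the 46 cells with Lyve1, 35 also had Folr2 (76.1%, against 36.1% of the other cells, at medians of 10217 and 8670.5 UMIs). Of 56 cells with Vcam1, 20 also had Slc40a1 (35.7%, against 14.2% of the other cells).

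Few of the cells showed signs of division. At least 5 UMIs of mitosis genes were found in 11 of 564 cells (1.95%, exact interval 0.978 to 3.46), 10 of them in mouse 5, in 3 of 336 Ccr2-positive cells (0.893%, 0.185 to 2.59), and in 18 of 375 macrophages with both Fcrls and Ccr2 (4.80%, 2.87 to 7.48). Mouse 3 had 0 of 212, which allows a share of up to 1.42%.

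Male and female mice were compared within the Fcrls-high Ccr2-negative cells. Their share among macrophages was 38.1% ± 2.41 (SD, n = 3) in males and 39.7% ± 6.26 (SD, n = 3) in females (exact permutation test, two-sided, p = 0.8, smallest possible p 0.1). Of 5943 genes tested by edgeR, 3 were higher in males and 2 in females (0.0841% called, 0.0505% and 0.0337%), and 18 were called without mouse 3. Of these, Xist (0, 2.47 and 1.02 CPM against 517, 538 and 415), Ddx3y (71.2, 59.3 and 72.3 against 0, 0 and 1.25) and Eif2s3y (42.1, 58.1 and 53.5 against 0, 1.93 and 1.25) are genes of X inactivation and of the Y chromosome and match the sex of each hashtag.

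The autosomal genes were Ccl8 and Cd209a. Ccl8 was at 559, 361 and 640 CPM in males and 127, 32.8 and 58.7 in females (log2 2.78, SE 0.29, adjusted p 4.8e-05, edgeR). It was found in 38.2%, 21.7% and 50.0% of the cells of male mice and in 18.9%, 16.7% and 17.3% of those of females. In macrophages with both Fcrls and Ccr2 the sexes overlapped for Ccl8, at 67.7, 231 and 287 CPM and 14.8, 15.8 and 772. In Ccr2-positive macrophages the values were 40.0, 8.64 and 38.3 CPM in males and 2.51, 7.10 and 0 in females. The female values rest on 3 UMIs, and male mouse 3 lay close to female mouse 4. The term for a difference of the sex effect between the Fcrls-high and the Ccr2-positive cells did not pass in edgeR for Ccl8 (log2 -0.47, SE 1.31, adjusted p 0.9996) or Cd209a (log2 -0.16, SE 0.41, adjusted p 0.9996). For the class with both Fcrls and Ccr2 it was not tested. Cd209a, a C-type lectin (DC-SIGN family), was at 43.7, 42.0 and 28.6 CPM in males and 108, 94.4 and 97.4 in females (log2 -1.51, SE 0.20, adjusted p 0.00079, edgeR), and was found in 8.82%, 12.3% and 7.39% of cells against 28.4%, 25.8% and 25%. Each sex is represented by 3 animals of 1 lane, so litter, cage or handling cannot be told apart from sex.

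**Figure D5:**
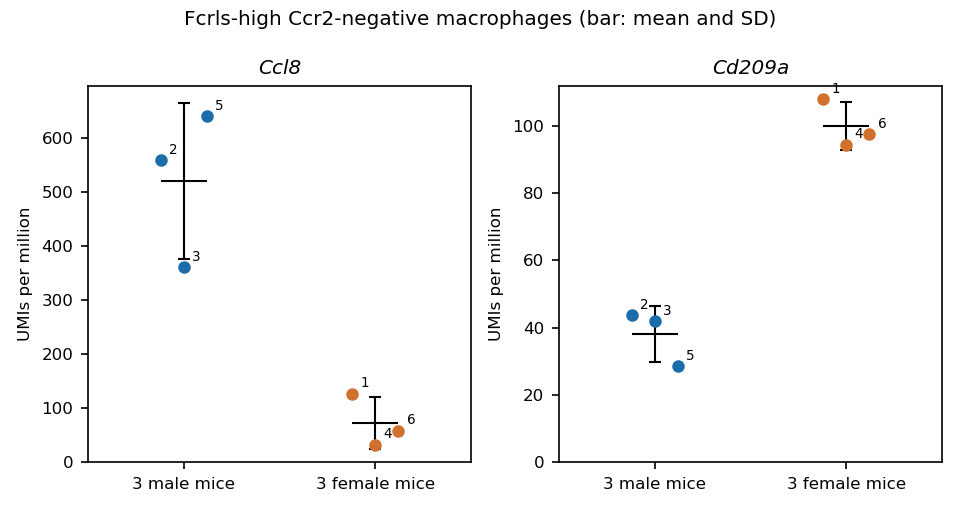
Levels of Ccl8 and Cd209a in CPM (vertical axes, from 0) in Fcrls-high Ccr2-negative macrophages of 3 male and 3 female mice. Points are mice with their hashtag number and bars the mean and SD. Male mice lie above females for Ccl8 (361 to 640 against 32.8 to 127) and below them for Cd209a (28.6 to 43.7 against 94.4 to 108).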

How the data were processed

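Per the labels and methods, the authors aligned reads of a single 10x 3′ v3 lane to mm10 with Cell Ranger (3.1.0 per the file headers) and deposited UMI counts per gene and cell, without normalization, for 4395 barcodes and, after filtering, for 2668 male cells. Hashtag counts were assigned here with Seurat (5.3.0, HTODemux) on the larger matrix, keeping cells with over 200 and under 5000 genes and under 5% mitochondrial UMIs. This removed 269 cells with more than 1 hashtag as doublets, returned exactly the 2668 deposited cells and gave 1073 female cells. Doublets within a mouse were not called.

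UMIs were summed per mouse and population (members 617631, 1618683 and 2933882 UMIs in mouse 2, 3 and 5) and tested with edgeR (4.0.16, R 4.3.3, TMM, glmQLFTest, filterByExpr, Benjamini-Hochberg over all genes tested). Alternatives used DESeq2 (1.42.0). Levels are UMIs per 1e+06 without TMM, and SE is the log2 fold change over the square root of F. Populations of a mouse come from 1 animal and so pair. Deviations from the group means correlated at 0.022, 0.168 and 0.119 within mice and -0.011, -0.091 and -0.053 between them. Deviations from a mean of 3 mice sum to 0, which ties the between-mouse values to the within-mouse ones with opposite sign. The between-mouse values are thus no separate evidence of pairing. Intervals are exact (Clopper-Pearson, 95%) and, like the limits for a count of 0 (3 counts), cover counting error only. P-values measure the spread between 3 mice.

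The members, lists and named genes were chosen with earlier results of these data known. Named were the markers and rule genes, the 10 largest called changes each way against Ccr2-positive cells (same way in every mouse, at least 100 UMIs), 5 higher and 3 lower genes for each other cell type, up to 4 called genes and the most abundant gene of each list, and up to 5 genes each way between sexes. Promoters came from a RefSeq table for GRCm38.p6, matched by symbol (5 of 7 markers), and gene positions from GENCODE on GRCm38. Cell types other than macrophages were set by limits on marker UMIs. The T and NK cell class of mouse 2 also held basophil genes. A few genes of the lists are not reported here.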

Additional observations from a re-analysis of the deposited data

Results flagged for a closer look

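Cells that hashtags assigned to no single mouse, and that no comparison used, also included cells that met the rule, which is why they are given here. Of 269 cells with more than 1 hashtag, 44 met the rule, or 16.4% (exact 95% interval 12.1 to 21.3). They had a median of 9508 UMIs, and 14 of them passed the limit of another cell type. Of 101 cells with no hashtag, 6 met the rule, or 5.94% (2.21 to 12.5), at a median of 1406.5 UMIs. The part of depth and of mixed droplets in these shares was not tested.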

How the results depend on the processing

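The 624 genes called against Ccr2-positive macrophages in males became 397 with DESeq2 and 357 with cells thinned to 3000 UMIs, and 339 to 403 when a mouse was left out, with the cause not tested. Without mouse 2, 3 or 5, 312, 335 and 366 of them were called the same way. In females 322 calls became 190 with DESeq2 and 149 to 199 without a mouse. Other settings stayed within 1.5 times: 815 with the mouse as replicate block (449 in females), which lost no call of a named or listed gene and added 32 (22 in females), 789 without a filter on low counts, 618 with RLE factors, 655 with a stricter Ccr2-positive class, 639 with at least 5 UMIs of Fcrls, 542 with C1q at 1% and 643 without cells past another limit. Without the filter 49.3% of calls were higher, against 41.8%. None of the 119 named or listed calls in males reversed, and 96 of them held with DESeq2. Among those lost with it were Fos, Jun, Tslp, Ccl5, Ccr1, P2ry12, Cd40, H2-Ob, Axl, Tgfbr1 and Retnlg. Between sexes 5 genes became 5 to 18, with 18 without mouse 3. The male minus female share among macrophages (-1.63 points) ranged from -3.96 to 1.93 without a mouse and turned positive without mouse 6 (1.93), and that among CD45+ cells (-2.10) ranged from -5.55 to 1.11, positive without mouse 2 (1.11) or 6 (0.327). The rule gave 608 members at 2 or more UMIs of Fcrls, 474 at 5 or more and 543 with C1q at 1%. Applied to cells thinned to 3000 UMIs, with shallower cells left out, it gave 412, so membership depends on depth. Depth limits genes with few UMIs: thinning left 4436 of 7385 genes to test. Leaving out cells with granule genes from T and NK cells, chosen after seeing the data, gave 2808 calls.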
